A study of Mus musculus with 14 samples.

Results

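Clu, Sprr1a, Lrg1, Wfdc18 and Ankrd1 are genes known from injured, regenerating or fetal-like epithelium, and their array signals were followed in duodenal tumors of mice without Lrig1, in the normal duodenum beside those tumors and in wildtype duodenum. The genes were found by symbol, as array rows annotated with exactly 1 symbol from a list of 6. Of these 6 genes, 5 had such a row, each with 1 row, among 19938 genes in all. Ly6a was not analysed here. The list was chosen by signal, with the high values of some of these genes in tumors known, so the comparisons with tumors are given for these 5 genes as descriptions, with no test.

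The groups were 6 arrays of duodenal tumors, 5 of adjacent normal duodenum and 3 of wildtype duodenum. The tumors and the adjacent tissue came from mice of genotype Lrig1-CreERT2/CreERT2, in which both alleles of Lrig1, a negative regulator of ErbB receptors, carry an insertion of the tamoxifen-inducible recombinase CreERT2, and which the labels also write as Lrig1-/-. All mice were of a mixed 129S7/SvEv and C57/BL6 background and age matched, with no age given, all tissue was proximal duodenum, and no treatment is named. Each adjacent array shares its mouse with 1 tumor array, so the 14 arrays stand for 9 mice, and tumor replicates 2 to 6 pair with adjacent replicates 1 to 5 in that order. Values are log2 signals, so a difference of 1 is a doubling, and signals of different genes are not set against each other because each row has its own probes.

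Intestinal epithelium that repairs damage is known to return for a time to a fetal-like state. In the mouse, Clu marks rare revival stem cells that appear after injury, and the co-activator YAP, held back by the Hippo kinases, is known to drive that state. Damage also brings interleukin-6 and interleukin-22 family cytokines, which signal through STAT3 to genes of the acute phase response. Clu codes for clusterin, a secreted chaperone. Sprr1a codes for a small proline-rich protein that is cross-linked into the envelope of squamous cells, and Lrg1 for a secreted glycoprotein of the acute phase that modifies TGF-beta signaling through endoglin. Wfdc18 codes for a small secreted protein with a whey acidic protein (WAP) domain, and Ankrd1 for an ankyrin repeat protein of muscle that is widely used as a YAP target gene.

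Promoters are shown for Sprr1a and Wfdc18, which shared the highest rises beside adjacent tissue, and for Ankrd1, whose signal was low in all groups. Each line gives the 250 bases before the start of the gene, 5′ to 3′ on the gene's own strand, from RefSeq (GRCm38.p6). Capitals mark matches to TGANTCA, the AP-1 motif, or GGAATG, a TEAD motif. The windows are chr3:92485882-92486131 on the minus strand for Sprr1a, chr11:83708754-83709003 on the plus strand for Wfdc18 and chr19:36119845-36120094 on the minus strand for Ankrd1.
Sprr1a: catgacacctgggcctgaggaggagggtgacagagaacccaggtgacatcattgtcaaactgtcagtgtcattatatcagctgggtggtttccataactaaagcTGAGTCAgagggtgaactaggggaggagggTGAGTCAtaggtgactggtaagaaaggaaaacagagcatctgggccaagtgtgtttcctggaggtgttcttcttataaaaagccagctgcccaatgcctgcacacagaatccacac
Wfdc18: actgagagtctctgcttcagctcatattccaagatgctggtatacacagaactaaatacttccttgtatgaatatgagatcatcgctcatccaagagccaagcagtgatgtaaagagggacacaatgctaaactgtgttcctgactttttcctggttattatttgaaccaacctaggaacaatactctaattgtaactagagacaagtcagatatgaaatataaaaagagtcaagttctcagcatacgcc
Ankrd1: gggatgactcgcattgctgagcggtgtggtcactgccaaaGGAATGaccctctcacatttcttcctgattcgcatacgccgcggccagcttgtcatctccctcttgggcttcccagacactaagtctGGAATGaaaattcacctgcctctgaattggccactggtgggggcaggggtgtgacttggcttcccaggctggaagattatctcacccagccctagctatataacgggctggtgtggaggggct

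The AP-1, TEAD and STAT (TTCNNNGAA) motifs were searched on both strands. Sprr1a held 2 AP-1 matches, which began 146 and 116 bases before the start. Ankrd1 held 2 TEAD matches, which began 210 and 123 bases before the start. No match to any of the 3 motifs lay in the Wfdc18 window or in the Lrg1 window, which is not printed. Among 32851 promoters of the same table, 7.81% held the AP-1 motif, 14.7% the TEAD motif and 8.30% the STAT motif. The search and these shares used a window longer than the printed one, which also reached past the start of the gene. A match is a string of letters and is not evidence that a factor binds.

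Clu was high in every tumor. Its log2 signal in tumor replicates 1 to 6 was 12.56, 12.83, 12.82, 13.12, 12.94 and 12.97. In adjacent replicates 1 to 5 it was 9.46, 12.08, 7.50, 7.47 and 7.43, and in wildtype replicates 1 to 3 it was 11.51, 7.26 and 9.52. The tumors lay close together, whereas the non-tumor arrays were spread over more than 4 log2 units, and adjacent replicate 2 and wildtype replicate 1 came nearest to the tumors without reaching them. Clu averaged 12.87 ± 0.19 in tumors (SD, n = 6), 8.79 ± 2.03 in adjacent tissue (n = 5) and 9.43 ± 2.13 in wildtype tissue (n = 3). The lowest tumor was 0.48 above the highest adjacent array. Its log2 fold change was 4.11 ± 0.71 (SE) against adjacent tissue, which is 17.2-fold, and 3.44 ± 1.00 against wildtype tissue.

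Lrg1 showed a similar layout with a wider spread among tumors. Its log2 signal was 11.71, 11.66, 11.48, 12.66, 12.44 and 12.67 in tumor replicates 1 to 6. It was 7.65, 9.74, 7.63, 7.58 and 7.51 in adjacent replicates 1 to 5, and 8.80, 7.31 and 8.06 in wildtype replicates 1 to 3. All tumors were above all non-tumor arrays, and adjacent replicate 2 stood apart from the other adjacent arrays. Lrg1 averaged 12.11 ± 0.55 in tumors, 8.02 ± 0.96 in adjacent tissue and 8.06 ± 0.74 in wildtype tissue (SD, n = 6, 5 and 3). Its log2 fold change was 4.11 ± 0.38 (SE) against adjacent tissue and 4.05 ± 0.53 against wildtype tissue.

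Sprr1a was nearly level across the tumors. It read 13.76, 13.75, 13.62, 13.67, 13.63 and 13.67 in tumor replicates 1 to 6. In adjacent replicates 1 to 5 it read 9.28, 9.35, 8.78, 8.74 and 8.57, and in wildtype replicates 1 to 3 it read 13.13, 8.57 and 8.87. Adjacent tissue lay far below the tumors in every array, whereas 1 of the 3 wildtype arrays was 0.49 below the lowest tumor. Sprr1a averaged 13.68 ± 0.06 in tumors, 8.94 ± 0.35 in adjacent tissue and 10.19 ± 2.55 in wildtype tissue (SD, n = 6, 5 and 3). Its SD over the tumors was larger than that of only 1.73% of all genes, at a mean signal over all arrays above that of 94.1% of genes. Its log2 fold change was 4.74 ± 0.49 (SE) against adjacent tissue and 3.49 ± 0.69 against wildtype tissue.

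Wfdc18 had the largest difference from adjacent tissue of the 5 genes. Its log2 signal in tumor replicates 1 to 6 was 12.27, 12.65, 12.12, 12.36, 12.45 and 12.47. Adjacent replicates 1 to 5 had 7.95, 6.99, 6.46, 6.97 and 6.20, and wildtype replicates 1 to 3 had 11.36, 6.67 and 6.78. As for Sprr1a, wildtype replicate 1 was near the tumors and the other two wildtype arrays were at the level of adjacent tissue. Wfdc18 averaged 12.39 ± 0.18 in tumors, 6.91 ± 0.67 in adjacent tissue and 8.27 ± 2.68 in wildtype tissue (SD, n = 6, 5 and 3). Its log2 fold change was 5.48 ± 0.54 (SE) against adjacent tissue, which is 44.6-fold, and 4.11 ± 0.76 against wildtype tissue.

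Ankrd1 was dim on every array and did not separate the groups. It read 5.90, 5.98, 5.90, 5.65, 5.80 and 5.95 in tumor replicates 1 to 6. It read 5.84, 5.85, 5.74, 5.70 and 5.97 in adjacent replicates 1 to 5, and 5.75, 5.88 and 5.92 in wildtype replicates 1 to 3. The ranges of the 3 groups overlapped. Only 16.2% of genes had a lower mean signal over all arrays. Its log2 fold change was 0.04 ± 0.06 (SE) against adjacent tissue and 0.01 ± 0.09 against wildtype tissue.

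**Figure D1:**
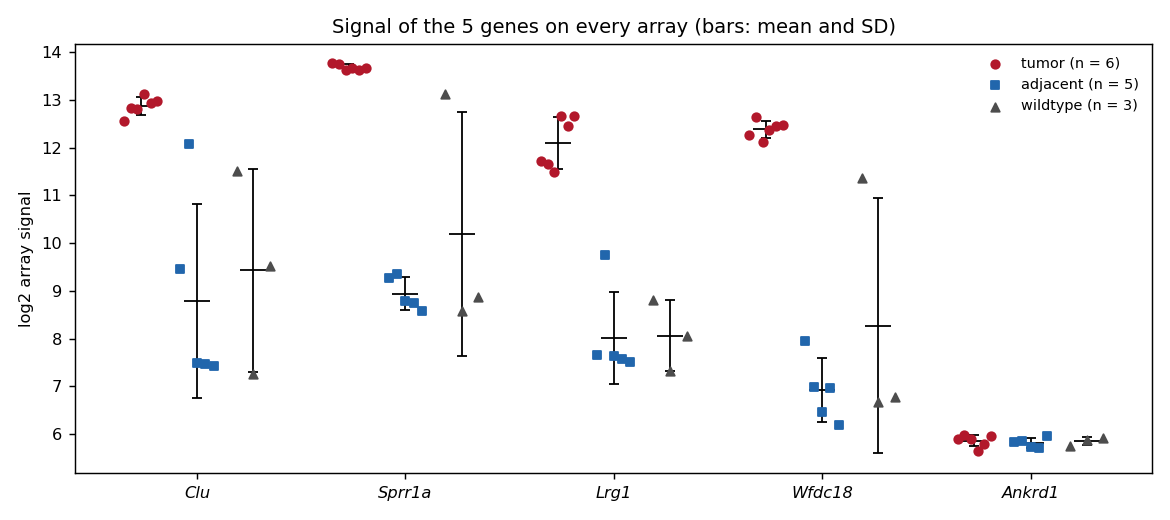
Log2 array signal (vertical axis) of the 5 genes in each of the 6 tumors (red circles), 5 adjacent arrays (blue squares) and 3 wildtype arrays (grey triangles), with black bars for the mean and SD of each group. For Clu, Sprr1a, Lrg1 and Wfdc18 every tumor lies above every adjacent and wildtype array, while for Ankrd1 the groups overlap and all values lie between 5.65 and 5.98.

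Tumors and adjacent tissue did not overlap for 4 of the 5 genes, all higher in tumors, and the same 4 genes did not overlap between tumors and wildtype tissue. Over all genes, 10.3% were higher in tumors without overlap with adjacent tissue, and 8.53% without overlap with wildtype tissue. Since the genes were picked with these contrasts known, nothing is read from their count. A log2 fold change of at least 3 in tumors was found for 0.356% of genes against adjacent tissue and for 0.155% against wildtype tissue. In bulk tissue, a higher share of cells that hold a transcript and more of it per cell cannot be told apart.

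Within the 5 mice that gave both tissues, Clu, Sprr1a, Lrg1 and Wfdc18 were higher in the tumor each time. The difference for Clu was 3.37, 0.74, 5.63, 5.47 and 5.54 in the order of adjacent replicates 1 to 5, and that for Lrg1 was 4.01, 1.74, 5.04, 4.87 and 5.16. The mouse of adjacent replicate 2 thus had the smallest difference for both genes. Sprr1a differed by 4.28 to 5.10 and Wfdc18 by 4.70 to 6.27 over the same mice. Ankrd1 was higher in the tumor in 3 of 5 mice, with differences from -0.09 to 0.15.

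**Figure D2:**
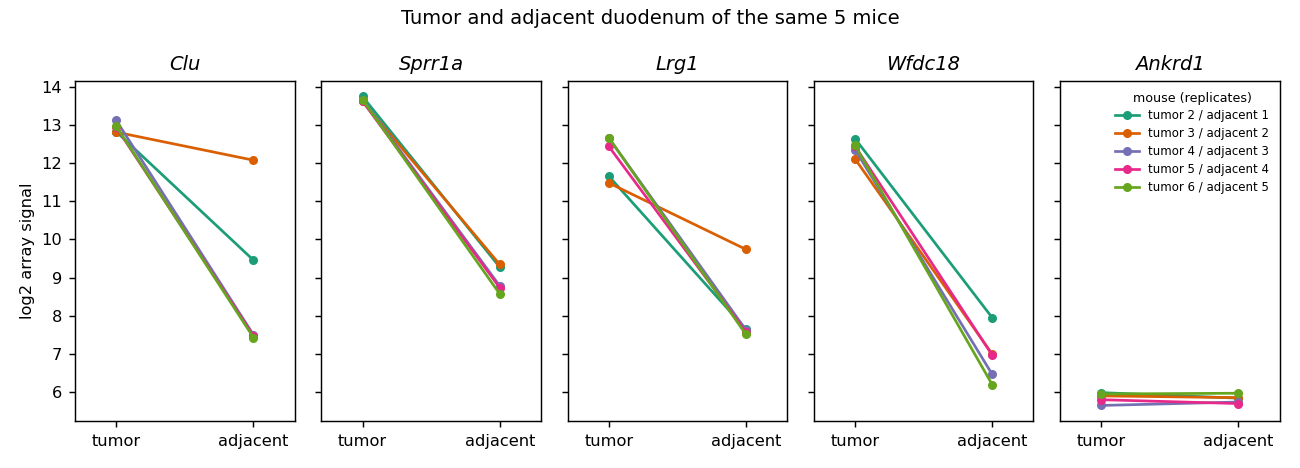
Log2 array signal (vertical axis) of each gene in the tumor (left) and the adjacent duodenum (right) of the same 5 mice, with 1 line for each mouse. Clu and Lrg1 fall least in the mouse of tumor replicate 3 and adjacent replicate 2, where the differences are 0.74 and 1.74.

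The contrast of adjacent with wildtype tissue asks whether duodenum without Lrig1 already differs away from a tumor, and it was tested although both groups had served as controls when the genes were picked. None of the 5 genes passed, at an adjusted p of 0.998 for each in limma's moderated test over all genes, and 0 of the 5 had an unadjusted p under 0.05. Over all genes 0% were called, and 2.80% had an unadjusted p under 0.05. The log2 fold change was -0.67 ± 1.02 (SE) for Clu, -1.24 ± 0.71 for Sprr1a and -1.36 ± 0.78 for Wfdc18. It was -0.07 ± 0.55 for Lrg1 and -0.03 ± 0.09 for Ankrd1. Leaving out wildtype replicate 1 turned the sign for Clu (0.38), Sprr1a (0.23), Lrg1 (0.31) and Wfdc18 (0.18). All 5 genes overlapped between adjacent and wildtype tissue, as did all but 2.12% of genes.

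The non-tumor arrays differed in their pancreatic acinar transcripts. The mean signal of 10 pancreatic acinar genes was 7.33 to 9.86 in tumors, 13.4 and 14.2 in adjacent replicates 1 and 2 and 13.98 and 13.6 in wildtype replicates 1 and 3. It was 7.27 to 7.45 in the remaining 4 non-tumor arrays. Clu was 9.46 to 12.08 in the 4 non-tumor arrays that carried acinar transcripts and 7.26 to 7.50 in the 4 that did not. Lrg1 was 7.65 to 9.74 in the 4 that carried them and 7.31 to 7.63 in the 4 that did not. Sprr1a was 8.87 to 13.13 in those with acinar transcripts and 8.57 to 8.78 in those without. The sets did not overlap for these 3 genes, which held for 10.3% of all genes. Wfdc18 (6.78 to 11.36 with, 6.20 to 6.97 without) and Ankrd1 (5.75 to 5.92 with, 5.70 to 5.97 without) overlapped. The same arrays also differed in S100g, a calcium-binding protein of the duodenum singled out after its values were seen, at 13.54 ± 0.14 with acinar transcripts and 8.48 ± 0.64 without (SD, n = 4 each). These sets were seen in the data and are no groups of the study. The part of acinar tissue, or of what else differed between these arrays, in the signal of the 5 genes was not tested.

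Wildtype replicate 1 carried a further signal. The mean of 6 gastric pit cell genes was 12.3 to 13.8 in tumors, 6.11 to 8.19 in adjacent tissue and 13.4, 6.73 and 7.17 in wildtype replicates 1 to 3. Gkn2, a secreted gastric protein of that list, was 14.2 in wildtype replicate 1 and at most 7.32 in the other two wildtype arrays. Mast cell genes and the squamous keratins Krt13 and Krt4 stood apart there too. The squamous list as a whole differed little, at a mean of 6.95, 6.47 and 6.61 in wildtype replicates 1 to 3, and Krt14 was 6.99, 6.63 and 6.89. Krt13, a keratin of squamous epithelium, was 8.97, 7.06 and 7.26 in wildtype replicates 1 to 3, beside 7.69 to 8.26 in tumors, and Krt4 was 7.61, 5.96 and 6.26, beside 6.11 to 6.94 in tumors. The mast cell protease Mcpt1 was 11.21, 5.82 and 5.24 in the wildtype arrays, beside 10.2 to 12.47 in tumors. Sprr1a and Wfdc18 were both high in wildtype replicate 1, and the part of gastric, squamous or mast cells in that was not tested. Without this array, the log2 fold change of tumors over wildtype tissue was 4.96 for Sprr1a and 5.66 for Wfdc18, and 4.48 for Clu and 4.42 for Lrg1. Epithelial genes averaged 12.7 to 13.1 in tumors, 12.5 to 12.7 in adjacent and 12.6 to 12.8 in wildtype tissue. The labels call the non-tumor tissue epithelium, yet smooth muscle genes averaged 9.83 to 11.0 in adjacent tissue and 10.5 to 11.5 in wildtype tissue, beside 8.54 to 11.5 in tumors. Lrig1 itself read 7.65 to 8.54 in tumors, 6.95 to 7.40 in adjacent tissue and 8.22 to 9.54 in wildtype tissue, and whether its probes lie within the altered stretch is not known here.

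**Figure D3:**
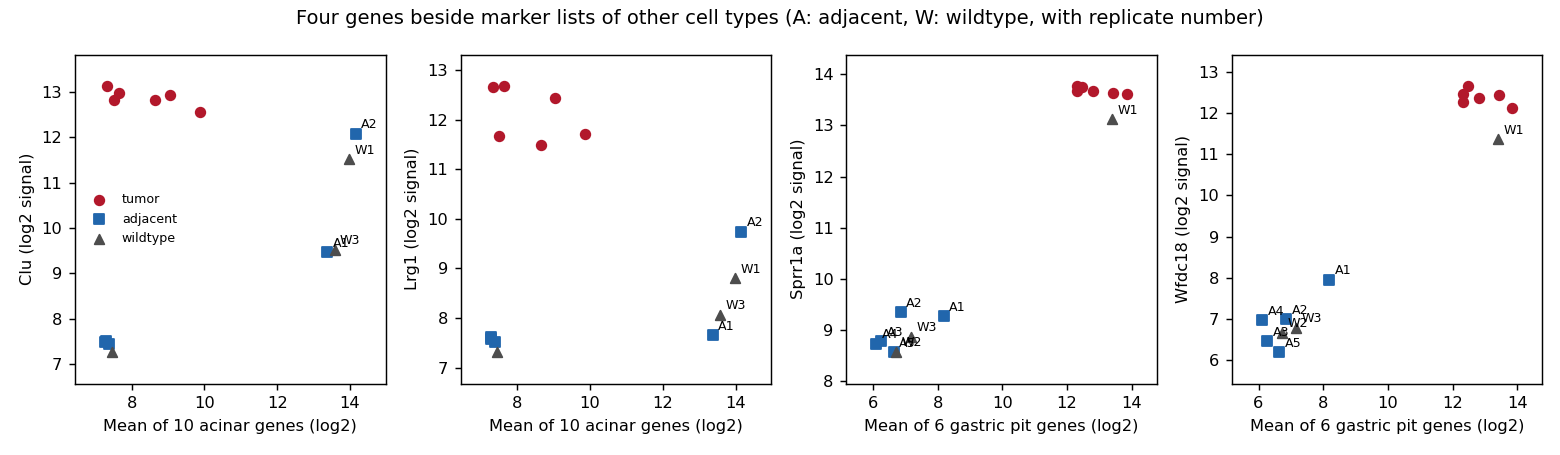
Log2 signal of Clu and Lrg1 against the mean log2 signal of 10 pancreatic acinar genes, and of Sprr1a and Wfdc18 against the mean of 6 gastric pit genes, for tumors (red circles), adjacent (blue squares, A) and wildtype arrays (grey triangles, W). The non-tumor arrays with Clu of 9.46 or more are those with acinar means of 13.4 or more, and wildtype replicate 1 lies beside the tumors for Sprr1a and Wfdc18.

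Variation among the tumors had played no part in the choice of the genes. Lrg1 had an SD of 0.55 over the 6 tumors, above that of 96.4% of genes, and Clu an SD of 0.19, near the median of all genes. Mouse identifiers begin with B or F, and the labels do not say what the letter stands for. The 3 tumors from B mice had Lrg1 at 12.44 to 12.67 and the 3 from F mice at 11.48 to 11.71. Clu was 12.94 to 13.12 in B tumors and 12.56 to 12.83 in F tumors. The sets did not overlap for either gene, which held for 14.5% of all genes. Both adjacent arrays with acinar transcripts came from F mice, so the 2 splits overlap. They do not coincide, since wildtype replicate 3 carried acinar transcripts and came from a B mouse.

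Pairs of the 5 genes were correlated over the 6 tumors, and none of 10 pairs passed an exact permutation test after Benjamini-Hochberg adjustment. The strongest was Clu with Lrg1, with Pearson's r = 0.770 (exact two-sided p = 0.0639, adjusted p = 0.639) and Spearman's rho = 0.771 (exact p = 0.103, adjusted p = 0.793). Without the 2 tumors farthest from the median of the first gene, r of several pairs moved widely, to 0.998 for Clu with Lrg1, to 0.774 (-0.347 over all 6) for Sprr1a with Lrg1 and to -0.947 (-0.555 over all 6) for Lrg1 with Ankrd1, so 4 tumors settle no relation. The tumors also fall into the B and F sets, which are too small for a value of their own. The smallest p that 6 tumors allow is 0.00278.

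Genes whose signal ran most like each of the 5 over the 14 arrays are given as a description, since all arrays share the division into tumor and non-tumor tissue. For Clu they were Slc6a9 (r = 0.974), a glycine transporter, Paics (0.966), an enzyme of purine synthesis, and Orai2 (0.963), a calcium channel subunit. Slc6a9 averaged 12.16 ± 0.24 in tumors, 10.57 ± 0.94 in adjacent and 10.51 ± 0.93 in wildtype tissue (SD, n = 6, 5 and 3), so it shared the wide non-tumor spread of Clu. For Lrg1 they were the protease Bace1 (0.977), the pore-forming claudin Cldn2 (0.975) and Uck2 (0.968), a uridine-cytidine kinase. For Sprr1a they were Anxa3 (0.995), the gastric protein Gkn1 (0.994) and Sptssb (0.994), a subunit of the enzyme that starts sphingolipid synthesis. For Wfdc18 they were Mboat1 (0.992), a lysophospholipid acyltransferase, Acsm3 (0.991) and again Sptssb (0.989). The highest wildtype array was at 12.04 for Sptssb and at 13.7 for Gkn1, within the range of the tumors for both. Ankrd1 had 0 genes with r over 0.9, against 169 for Clu, 344 for Lrg1, 664 for Sprr1a and 651 for Wfdc18.

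The gene lists that follow were chosen with earlier results of these data known, so their counts and p-values are not independent findings. Most other listed genes known from fetal-like and regenerating gut epithelium were higher in tumors. Of 17 such genes measured, 15 rose, 0 fell and 2 did not pass against adjacent tissue, where 31.7% of all genes were called in limma's fit at an adjusted p under 0.05, 19.1% as higher in tumors. Their median log2 fold change was 2.04, beside 0.04 over all genes. Anxa1, an annexin that restrains inflammation, rose by 3.98 ± 0.36 (SE, adjusted p = 2.74e-06). S100a6, a calcium-binding protein, rose by 3.89 ± 0.42 (adjusted p = 9.28e-06), and Il1rn, the interleukin-1 receptor antagonist, by 3.80 ± 0.33 (adjusted p = 1.86e-06). In each of the 6 tumors Anxa1 was 10.3 or more, whereas adjacent tissue stayed at 7.16 or less and wildtype replicate 1 stood at 9.74. S100a6 was 11.94 in wildtype replicate 1, beside 11.94 to 12.55 in tumors. The list averaged 10.3 to 11.2 in tumors, 8.65 to 8.83 in adjacent tissue and 10.18, 8.77 and 8.52 in wildtype replicates 1 to 3. Against wildtype tissue, where 14.1% of all genes were called, 10 of the 17 rose and 0 fell, with a median of 1.65. Anxa8 rose there by 3.09 ± 0.48 (adjusted p = 0.00126). That count was 6 without wildtype replicate 2, 6 without wildtype replicate 3 and 0 within F mice, which hold a single wildtype array.

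Target genes of YAP and its relative TAZ were split. Of 21 measured, 7 rose, 4 fell and 10 did not pass against adjacent tissue, with a median log2 fold change of 0.04. That is 52.4% called, beside 31.7% of all genes. With only the non-tumor arrays that carried acinar transcripts, 6 of these targets passed, and 2181 of all genes. F3, which codes for tissue factor, the trigger of blood clotting, rose by 2.99 ± 0.23 (SE, adjusted p = 8.79e-07), and Myof, a membrane repair protein, by 2.06 ± 0.21 (adjusted p = 6.3e-06). Nuak2, a kinase of the AMPK family, fell by 1.65 on the log2 scale (SE 0.18, adjusted p = 7.46e-06). F3 lay between 9.95 and 11.65 in tumors, between 7.98 and 8.29 in adjacent tissue and between 7.72 and 8.81 in wildtype tissue, with no overlap. The matrix proteins Ccn2 and Ccn1, singled out after their values were seen because they serve with Ankrd1 as standard YAP readouts, rose by 0.64 ± 0.17 (adjusted p = 0.00794) and 0.45 ± 0.14 (adjusted p = 0.0196). Against wildtype tissue Ccn1 rose by 0.76 ± 0.19 (adjusted p = 0.0175) and Ccn2 did not pass (0.29 ± 0.23). Besides Nuak2, the genes that fell against adjacent tissue were Gadd45a by 0.93 (adjusted p = 5e-06), Lats2 by 0.53 (adjusted p = 0.00127) and Amotl2 by 0.35 (adjusted p = 0.00793). Against wildtype tissue 4 of the 21 rose and 2 fell (28.6%, beside 14.1% of all genes).

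Of 14 components of the Hippo pathway, 2 rose, 1 fell and 11 did not pass against adjacent tissue. The share called was 21.4%, below the 31.7% of all genes. With only the non-tumor arrays that carried acinar transcripts, 1 passed. Tead4, a DNA-binding partner of YAP, rose by 1.18 ± 0.12 (SE, adjusted p = 6.94e-06) against adjacent and by 1.20 ± 0.17 (adjusted p = 0.000859) against wildtype tissue. It was 7.99 to 8.86 in tumors, 7.03 to 7.26 in adjacent and 7.05 to 7.26 in wildtype tissue. Vgll4, which competes with YAP for TEAD proteins, rose by 0.38 ± 0.10 (adjusted p = 0.00877). The kinase Lats1 fell by 0.23 (SE 0.08, adjusted p = 0.043). Against wildtype tissue 1 of the 14, Tead4, rose (7.14%, beside 14.1% of all genes). There 2 passed without wildtype replicate 1, tumor replicate 1 or tumor replicate 6.

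Lrg1 belongs to the acute phase response. Of 18 STAT3 and acute phase genes, 6 rose, 1 fell and 11 did not pass against adjacent tissue, and these 38.9% are near the 31.7% of all genes called. Within F mice 2 passed. Fut2, a fucosyltransferase of the epithelial surface, rose by 3.69 ± 0.61 (SE, adjusted p = 0.000299), the serum amyloid gene Saa3 by 2.36 ± 0.50 (adjusted p = 0.00191) and haptoglobin (Hp) by 1.58 ± 0.37 (adjusted p = 0.004). Fut2 was 12.21 to 13.07 in tumors and 12.63, 7.41 and 9.08 in wildtype replicates 1 to 3, so wildtype replicate 1 lay among the tumors. Saa3 ran from 7.31 to 10.94 in tumors and overlapped with adjacent tissue, at 6.32 to 7.41, and with wildtype tissue, at 6.47 to 9.23. Against wildtype tissue 3 rose and 1, the kinase gene Pim1, fell (22.2%, beside 14.1% of all genes). There 1 passed without tumor replicate 5, wildtype replicate 2 or wildtype replicate 3 and 2 without tumor replicate 4. Of 10 cytokines and receptors of the interleukin-6 and interleukin-22 families, 4 rose and 1 fell against adjacent tissue (50%, beside 31.7% of all genes). The number that passed was 3 without adjacent replicate 3, tumor replicate 4 or tumor replicate 6. It was 1 when only the non-tumor arrays with acinar transcripts were kept. Il11 rose by 1.35 ± 0.22 (adjusted p = 0.000222), and the oncostatin M receptor gene Osmr by 1.27 ± 0.15 (adjusted p = 1.37e-05). Il22ra1, the interleukin-22 receptor subunit, fell by 0.58 (SE 0.12, adjusted p = 0.00215). Of 10 genes of TGF-beta signaling that bear on Lrg1, 4 rose and 1 fell against adjacent tissue (50%, beside the same 31.7%). With only the non-tumor arrays that carried acinar transcripts, 3 passed. Tgfbr2, a receptor gene, was at 0.78 ± 0.10 (adjusted p = 3.45e-05) and Id1, a target gene, at 0.83 ± 0.14 (adjusted p = 0.00044). Id1 read 10.98, 10.23 and 10.12 in wildtype replicates 1 to 3, beside 10.43 to 10.90 in tumors. Against wildtype tissue 4 of the 10 rose and 0 fell (40%, beside 14.1% of all genes). There 2 passed without wildtype replicate 2 or wildtype replicate 3.

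Sprr1a has many relatives, most of which were dim, so their changes are not set against its own. Of 18 other genes of the cornified envelope, 9 rose, 0 fell and 9 did not pass against adjacent tissue, and the median log2 fold change was 0.21. The share called was 50%, beside 31.7% of all genes. The count of 9 was 5 without adjacent replicate 3 and 3 within F mice. Ppl, which codes for periplakin, rose by 1.29 ± 0.13 (SE, adjusted p = 5.69e-06), involucrin (Ivl) by 1.17 ± 0.13 (adjusted p = 1.26e-05) and Sprr1b, the nearest relative, by 1.09 ± 0.10 (adjusted p = 2.51e-06). Sprr1b was 6.91 to 7.37 in tumors, 5.82 to 6.15 in adjacent and 6.36 to 6.90 in wildtype tissue. Sprr3 (0.18 ± 0.09) and the envelope protein loricrin (Lor, 0.13 ± 0.10) did not pass. Sprr genes are alike in sequence, so their rows may share signal. Against wildtype tissue 3 of the 18 rose (16.7%, beside 14.1% of all genes), or 1 without wildtype replicate 2. Of 8 markers of squamous epithelium, 4 rose against adjacent tissue (50%, beside the same 31.7%), with Krt13 at 0.95 ± 0.21 (adjusted p = 0.00291). The basal markers Krt5 (0.02 ± 0.06) and Trp63 (0.01 ± 0.07) did not pass, and the list averaged 6.73 to 6.89 in tumors, 6.41 to 6.62 in adjacent and 6.47 to 6.95 in wildtype tissue.

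Among 18 other WAP domain genes, 3 rose, 0 fell and 15 did not pass against adjacent tissue, a share of 16.7% beside the 31.7% of all genes. The count was 1 without adjacent replicate 3, adjacent replicate 4 or tumor replicate 6, and 1 within F mice. Wfdc2, a secreted epithelial protease inhibitor, rose by 3.52 ± 0.34 (SE, adjusted p = 3.96e-06) against adjacent and by 2.52 ± 0.48 (adjusted p = 0.00378) against wildtype tissue. It was 9.61 to 11.73 in tumors and 6.82 to 7.27 in adjacent tissue, and wildtype replicates 1 to 3 read 9.45, 7.26 and 7.41. The other two that rose, Wfdc15b and Wfdc6a, did so by 0.58 ± 0.20 (adjusted p = 0.0352) and 0.28 ± 0.09 (adjusted p = 0.0216). Slpi, the antileukoprotease, did not pass (0.19 ± 0.21).

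Of 24 measured genes of the Ly6/uPAR family, 10 rose, 1 fell and 13 did not pass against adjacent tissue. The share called was 45.8%, beside 31.7% of all genes. With only the non-tumor arrays that carried acinar transcripts, 7 passed. Psca, a surface protein of gastric and other epithelia, rose by 4.33 ± 0.95 (SE, adjusted p = 0.00249), the urokinase receptor gene Plaur by 2.93 ± 0.33 (adjusted p = 1.19e-05) and Ly6d by 2.67 ± 0.19 (adjusted p = 4.62e-07). Ly6d was 11.25 to 11.85 in tumors, 8.56 to 9.82 in adjacent and 8.83 to 9.65 in wildtype tissue, with no overlap. Psca ranged from 8.46 to 13.82 over the tumors and reached 13.4 in wildtype replicate 1. Against wildtype tissue 3 of the 24 rose and 1 fell (16.7%, beside 14.1% of all genes). There 8 passed without wildtype replicate 1, and 2 passed without any 1 of 7 other arrays (tumor replicates 1, 2 and 4, adjacent replicates 1 and 3 and wildtype replicates 2 and 3).

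Receptors that bind clusterin and relatives of Ankrd1 were few. Of 4 clusterin receptors, Vldlr rose by 1.48 ± 0.22 (SE, adjusted p = 0.000138) and Lrp8 by 0.80 ± 0.12 (adjusted p = 0.000135) against adjacent tissue, whereas Lrp2 (0.01 ± 0.07) and Trem2 (0.22 ± 0.09) did not pass. With only the non-tumor arrays that carried acinar transcripts, 1 of the 4 passed. Both Vldlr (1.39 ± 0.31, adjusted p = 0.00991) and Lrp8 (0.60 ± 0.17, adjusted p = 0.0308) also rose against wildtype tissue, but neither passed without wildtype replicate 2 or without wildtype replicate 3, and 1 of them passed without tumor replicate 2. Of the muscle ankyrin repeat genes beside Ankrd1, Ankrd23 rose by 0.26 ± 0.08 (adjusted p = 0.0167) against adjacent tissue, a call lost without adjacent replicate 1 and within F mice, and Ankrd2 did not pass (0.04 ± 0.09).

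**Figure D4:**
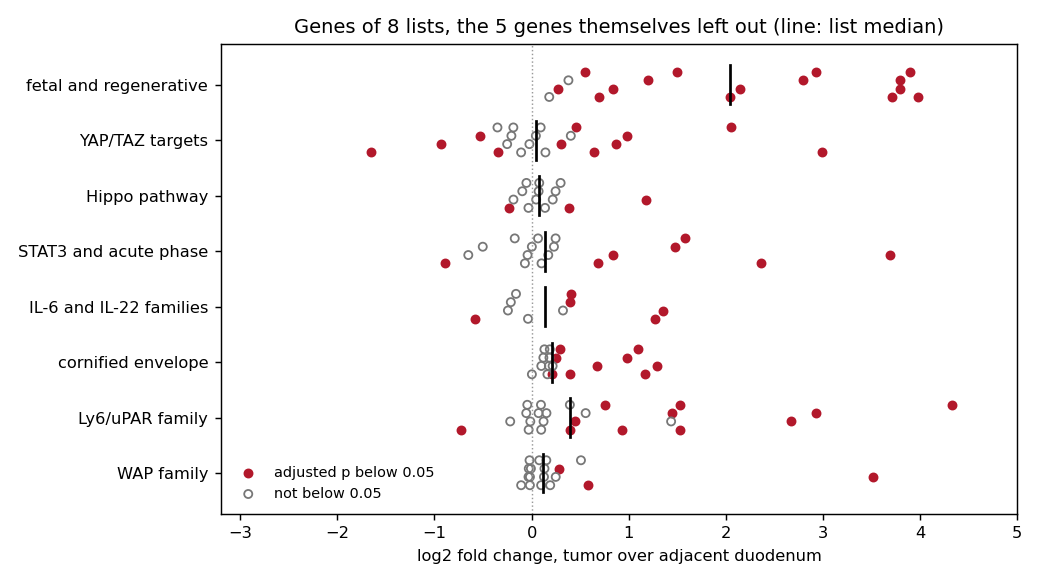
Log2 fold change of tumor over adjacent duodenum (horizontal axis) for each measured gene of 8 lists, the 5 genes themselves left out, with filled red points for an adjusted p below 0.05, open points for the rest and a black line at each list's median. The fetal and regenerative list has its median at 2.04, and the medians of the other 7 lists lie between 0.04 and 0.39.

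Markers of other cells that the tissue could hold moved as well, and their part in the signal of the 5 genes was not tested. Against adjacent tissue, where 31.7% of all genes were called, 6 of 9 markers of neutrophils rose. Neutrophil granules are known to hold the Lrg1 protein. Ltf, which codes for lactoferrin, rose by 2.83 ± 0.26 (SE, adjusted p = 2.79e-06), and the granule genes Camp (-0.03 ± 0.10) and Ngp (0.02 ± 0.06) did not pass. The neutrophil list averaged 6.29 to 6.996 in tumors, 5.74 to 6.05 in adjacent and 6.004 to 6.56 in wildtype tissue. Of the other lists, 5 of 8 fibroblast markers, 6 of 8 mast cell markers and 6 of 6 gastric pit genes rose. Fallen were 7 of 8 enterocyte genes, 8 of 8 T and NK cell genes and 5 of 8 macrophage genes. Liver, a source of acute phase proteins, was followed through 7 genes, of which 2 rose. Ttr, which codes for transthyretin, rose by 2.88 ± 0.36 (adjusted p = 2.66e-05) and F2 by 0.45 ± 0.14 (adjusted p = 0.0203). Against wildtype tissue Ttr rose by 2.53 ± 0.50 (adjusted p = 0.00462). Albumin (Alb) did not pass against adjacent tissue (0.14 ± 0.18). Between adjacent and wildtype tissue 0 genes of any of the 24 lists passed.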

How the data were processed

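The Affymetrix Mouse Gene 1.0 ST array was hybridised with total RNA of 14 samples. The deposited table holds 35556 rows as log2 signal, a unit taken from their range of 2.87 to 14.8. Per the submitters' processing notes, the authors used Affymetrix Expression Console 1.1 and the mm9 build. How background was removed and arrays were scaled is not stated there. Medians of the arrays lay within 7.11 to 7.29. Depth does not apply to arrays, and their number limits the precision.

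Of the rows, 21789 had 1 gene symbol, 1621 several and 12146 none. Symbols were updated through identifiers of a RefSeq gene table (21698 rows) or kept (91 rows), and the brightest row stood for each of 19938 genes. limma 3.58.1 (R 4.3.3) fitted group means on all arrays with mouse as a random block, because the labels' mouse identifiers pair 5 tumors with 5 adjacent samples. P-values were two-sided, moderated and adjusted by Benjamini-Hochberg over all genes, with 0.05 as threshold. One spread per gene is shared by all groups, so scatter among wildtype mice enters every SE. Because 5 tumors and 5 adjacent samples share their mice, p-values between these groups rest in part on differences within mice. P-values against wildtype tissue compare separate mice. The fit was tested on simulated data. Correlations and exact permutations used SciPy 1.17.1.

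The 6 genes and the 24 gene lists (272 entries, 12 without a gene) were chosen with earlier results of these data known. Named were the listed genes, up to 3 genes per pathway or family list and up to 2 per cell list with the largest change among those that passed, the genes most like each of the 5, and family relatives; defining markers of a list that did not pass were added after their values were seen. Alternatives changed the block, scaling, dim-gene filter, groups fitted, array weights, mouse identifier letter, acinar arrays, rows per gene and each replicate in turn.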

Additional observations from a re-analysis of the deposited data

Results flagged for a closer look

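Among 10 sets of arrays in which a gene's lowest and highest values were compared with their neighbours by Dixon's criterion, 1 array stood apart, and chance alone marks about 1 in 20 such sets. Lrg1 read 9.74 in adjacent replicate 2, whereas the other 4 adjacent arrays read 7.51 to 7.65. The gap took up 0.938 of the group's range. The same array had the highest adjacent value of Clu (12.08) and an acinar list mean of 14.2, and the part of acinar tissue was not tested.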

How the results depend on the processing

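The 4 genes that were higher in tumors kept that direction under every alternative run, and sizes moved. Tumor over adjacent, within F mice, gave 1.99 for Clu, 4.395 for Sprr1a, 2.91 for Lrg1 and 4.88 for Wfdc18, with 1719 genes and 21 of the injury list genes called (6313 and 41 in the fit reported). Within B mice it gave 5.54 for Clu and 5.02 for Lrg1. Against the adjacent arrays with acinar transcripts alone it gave 2.09 for Clu, 4.37 for Sprr1a, 3.29 for Lrg1 and 4.91 for Wfdc18, with 2181 and 22 called. These are adjacent replicates 1 and 2, also the only adjacent arrays of F mice. The acinar setting and that within F mice thus share their adjacent arrays and are not separate alternatives. Tumor over wildtype, within F mice (1 wildtype array), gave 1.22 for Clu, 0.58 for Sprr1a, 2.82 for Lrg1, 0.98 for Wfdc18 and 0.18 for Ankrd1, with 14 genes and 0 list genes called (2817 and 23 reported). Within B mice it gave 4.62, 4.93, 4.90, 5.70 and -0.10 for the same genes. Array weights gave 5.17 for Clu and 4.93 for Sprr1a, with 9525 and 46 called, and the wildtype arrays with acinar transcripts alone gave 504 and 10. Adjacent over wildtype turned sign for Ankrd1 with quantile normalization (0.064) and within F mice (0.090), for Clu (0.43), Sprr1a (0.11) and Lrg1 (0.28) with array weights, and for Clu (0.26) and Lrg1 (0.38) among arrays with acinar transcripts. Within F mice, Sprr1a was at -3.81 and Wfdc18 at -3.90, past the threshold, but the wildtype arm there is replicate 1 alone, the array with the gastric pit signal, and its spread is borrowed from the other groups. Genes called there numbered 1 after centring, 1 after quantile normalization, 1 without dim genes, 1691 with array weights and 73 within F mice (0 reported), with 5 and 4 list genes called in the last 2 settings. The causes were not tested.

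Leaving out each replicate in turn gave, for tumor over adjacent, 5232 to 6475 genes and 36 to 42 list genes called, with 3.76 to 4.95 for Clu, 4.64 to 4.84 for Sprr1a, 3.95 to 4.63 for Lrg1, 5.29 to 5.72 for Wfdc18 and 0.02 to 0.08 for Ankrd1. For tumor over wildtype it gave 940 (without wildtype replicate 2) to 4526 (without wildtype replicate 1) genes, 1090 without wildtype replicate 3, and 13 to 25 list genes, with 2.36 to 4.48 for Clu, 2.69 to 4.96 for Sprr1a, 3.67 to 4.42 for Lrg1, 3.31 to 5.66 for Wfdc18 and -0.04 to 0.05 for Ankrd1. For adjacent over wildtype it gave 0 to 1 genes and 0 list genes, with -1.75 to 0.38 for Clu, -2.05 to 0.23 for Sprr1a, -0.58 to 0.31 for Lrg1, -2.17 to 0.18 for Wfdc18 and -0.078 to 0.0053 for Ankrd1. Without the replicate block 4811 genes were called between tumor and adjacent tissue, and with mouse as a fixed term over the 5 pairs 5575; neither choice on the pairing moved that count by over 1.5 times. Sprr1a then differed by 4.72 ± 0.13 (SE). Ankrd1 was dropped by the dim-gene filter, so it has no value there, and its low signal over background limits what could be seen. No pair of genes passed over the tumors by rho or without any tumor.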
